A study of Mus musculus with 4 samples.

Results

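The MHC class I pathway was examined through 10 of the 32285 genes counted in the libraries, chosen by name: the heavy chains H2-K1, H2-D1 and H2-T23, their shared light chain B2m, the peptide transporter subunits Tap1 and Tap2, the transactivator Nlrc5, and the immunoproteasome subunits Psmb8, Psmb9 and Psmb10. All 10 were found in the count tables. They were measured by single-cell RNA sequencing in small intestinal epithelial cells of irradiated mice. WT mice were compared with VilCreIfnlr1fl/fl mice, called KO here, in which Cre under the Villin promoter, active in intestinal epithelium, deletes the floxed gene of the interferon-λ receptor Ifnlr1. Every mouse of both genotypes received 11 Gy of gamma irradiation while head, thorax and upper extremities were shielded, so no unirradiated cells served as a baseline. Collection is placed at 96 h in the series design and at 3 days in the protocol, and the difference was not resolved. Live cells with EPCAM and without CD45 were sorted. Each genotype had 3 mice, told apart by hashtags (antibody-borne barcodes) and sequenced together as 1 pool, so a difference of KO from WT cannot be told apart from one between the pools. Sex and age of the mice are not given in the sources used here.

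MHC class I molecules show peptides from inside the cell to CD8 T cells and natural killer cells. Proteasomes cut the peptides, the Tap1 and Tap2 transporter carries them into the endoplasmic reticulum, and a heavy chain binds them there together with B2m. Interferons raise most of these genes through IRF and other factors. Nlrc5, itself induced by interferon, is a transactivator that acts at the promoters of class I genes, B2m, Tap1 and Psmb9. The immunoproteasome arises when Psmb8, Psmb9 and Psmb10 take the places of the constitutive catalytic subunits Psmb5, Psmb6 and Psmb7.

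Promoters of the heavy chains and B2m, and the stretch shared by Psmb9 and Tap1, are shown first, because IRF and NF-Y factors are known to act through such sequences. RefSeq promoters (GRCm38.p6, the assembly of mm10) were found for 8 of the 10 genes, and those of Tap2 and Nlrc5 were not used here. The first 4 lines run 5′ to 3′ on the strand of the gene and end at the base before its RefSeq start, the last holds the stretch between the starts of Psmb9 and Tap1, and capitals mark an IRF core (AANNGAAA on either strand) or a Y box (CCAAT on either strand).
H2-K1, chr17:34000348-34000547, minus strand: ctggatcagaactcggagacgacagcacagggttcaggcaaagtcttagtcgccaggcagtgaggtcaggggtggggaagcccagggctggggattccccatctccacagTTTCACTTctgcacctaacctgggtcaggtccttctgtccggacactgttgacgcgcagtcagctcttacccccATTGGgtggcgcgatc
H2-D1, chr17:35262894-35263093, plus strand: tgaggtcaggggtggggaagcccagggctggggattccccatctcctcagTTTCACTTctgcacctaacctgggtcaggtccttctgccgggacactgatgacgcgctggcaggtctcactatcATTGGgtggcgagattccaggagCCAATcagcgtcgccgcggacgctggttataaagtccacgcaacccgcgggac
B2m, chr2:122147487-122147686, plus strand: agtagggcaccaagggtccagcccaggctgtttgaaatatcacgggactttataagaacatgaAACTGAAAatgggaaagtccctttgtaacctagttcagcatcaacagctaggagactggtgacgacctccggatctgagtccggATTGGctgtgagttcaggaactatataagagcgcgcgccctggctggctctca
H2-T23, chr17:36032702-36032901, minus strand: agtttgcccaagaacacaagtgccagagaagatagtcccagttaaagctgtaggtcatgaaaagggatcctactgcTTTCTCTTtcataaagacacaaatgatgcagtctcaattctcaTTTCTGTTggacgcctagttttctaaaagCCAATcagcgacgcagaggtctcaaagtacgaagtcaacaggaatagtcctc
From Psmb9 to Tap1, chr17:34187331-34187555, plus strand: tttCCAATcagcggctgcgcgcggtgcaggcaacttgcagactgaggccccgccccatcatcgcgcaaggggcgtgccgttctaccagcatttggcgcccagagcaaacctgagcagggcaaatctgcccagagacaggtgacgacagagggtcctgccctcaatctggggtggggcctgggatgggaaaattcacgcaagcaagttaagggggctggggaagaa

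The heavy chains and B2m, 4 of the 8 promoters, held an IRF core within 250 bases before the start, at −90 in H2-K1, −150 in H2-D1, −137 in B2m, and −124 and −81 in H2-T23. The same letters stood in 21.6% of all 27025 promoters of that length. A Y box stood in the same 4 promoters and in those of Tap1 and Psmb9, against 34.5% of all promoters. The match of Tap1 (at −222) and that of Psmb9 (at −8) are 1 and the same CCAAT in the stretch they share. An interferon-γ activated site (TTCNNNGAA) was found in Psmb8 alone among the 8, at −97, and in 7.2% of all promoters. The promoters of H2-K1 and H2-D1 shared 166 of 190 bases (87.4%) when set against each other without gaps. Psmb9 and Tap1 lie head to head with 225 bases between their RefSeq starts, and their GENCODE gene models overlap on opposite strands (Psmb9 chr17:34181987-34187764, Tap1 chr17:34187553-34197225). The RefSeq starts of H2-D1, H2-T23 and Psmb9 lie inside the GENCODE models of these genes, so their printed windows overlap those models. Psmb8 and Tap2 follow within the same cluster (chr17:34197721-34201454 and chr17:34203527-34216321), while B2m lies on chromosome 2 and Nlrc5 and Psmb10 on chromosome 8. A match of letters describes the sequence and is no measurement of a factor at it. Heavy chain genes resemble one another to differing degrees, so reads of H2-K1, H2-D1 and H2-T23 may be lost or placed in relatives. Their counts are uncertain to that extent.

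The libraries held 10453 (WT) and 7370 (KO) barcodes, of which 5563 and 4028 passed the filters. Hashtags placed 2773 and 2868 of these in a mouse, 843 to 1062 cells and 11142876 to 35999518 UMIs (unique molecular identifiers, 1 per captured transcript) per mouse. The WT2 and KO2 mice, both with hashtag number 2, stood apart. They were the deepest (median 12657 and 20575 UMIs per cell against 8527 to 11623), and crypt-progenitor cells made up 10.7% and 18.4% of their cells against 0.094% to 0.194% in the other 4. Results below are given with and without them where they decide a call. The 2 libraries shared 9 of the kept barcodes. Ifnlr1 itself, counted from its 3′ end, had 22.6, 15.5 and 26.3 CPM (counts per 1000000 UMIs) in WT and 26.9, 16.0 and 22.7 CPM in KO, which does not check the deletion because the deleted part is not named and need not be covered by 3′ reads.

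Cells were sorted into gates by the share of their UMIs that came from marker genes. The enterocyte gate (absorptive cells) held 4044 of the 5641 assigned cells, at 533 to 883 per mouse, and the goblet gate (mucus-secreting cells) held 740, at 99 to 147 per mouse. The protocol speaks of crypt cells, but the crypt-progenitor gate held only 281 cells, 93 of WT2, 183 of KO2 and 1 or 2 of each other mouse. The Paneth gate held 37 cells, the enteroendocrine gate 63 and the tuft gate 33, and 196 cells passed no gate. These small gates had under 20 cells in at least 1 mouse and were not tested. The sorted cells carried the label's epithelial markers (Epcam, keratins and others) at 8274 to 11320 CPM in sum, immune markers at 8.9 to 39.1 CPM and stromal and endothelial markers at 1.7 to 3.2 CPM.

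The summed level of the 10 genes was compared across gates. In the enterocyte gate it took 5118, 5056 and 5754 CPM for WT and 4970, 3346 and 4758 CPM for KO. In the goblet gate it took 2434, 1997 and 2650 CPM in WT and 1990, 1670 and 1927 CPM in KO mice, below the enterocytes of the same mouse in 6 of 6 mice. Tuft cells, 2 to 8 per mouse, ranged from 3365 to 9396 CPM in WT and from 1343 to 3262 CPM in KO mice, so their place among the gates is not resolved. The immune gate held 1 cell of WT2 (2485 CPM) and 2 cells of KO2 (15199.7 CPM). Cells outside every gate ranged from 1267 to 1857 CPM, enteroendocrine cells from 903 to 1567 CPM and Paneth cells from 498 to 2689 CPM, and these 3 ranges overlapped. In the crypt-progenitor gate the sum was 1223 CPM in WT2 and 949.5 CPM in KO2, against 5056 and 3346 CPM in the enterocytes of the same mice. H2-K1 gave much of that gap, with 250 and 208 CPM in progenitors against 1667 and 1221 CPM in enterocytes, and B2m stood at 357 and 283 against 1596 and 861 CPM. Psmb8 stood at 66.7 and 33.4 CPM in progenitors against 191 and 113 CPM in enterocytes. The other immunoproteasome subunits were closer: Psmb9 stood at 71.1 and 63.3 CPM in progenitors against 62.7 and 51.8 CPM in enterocytes, and Psmb10 at 203 and 158 against 202 and 193 CPM. With 1 mouse per genotype holding such cells there is no test of these differences. In a sum over cells, fewer expressing cells and less RNA per cell cannot be told apart.

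In KO enterocytes 7 of the 10 members were lower once the hashtag number was fitted as a block, where 7.57% of all genes tested were lower and 10.2% higher. Among these 7 the change was least in H2-K1 and H2-D1 and most in Tap1 and Nlrc5. Nlrc5 passed the filter for low counts only through the WT mice, so it is counted as a description. No member passed without the block, and the 3 immunoproteasome genes passed neither way. The levels per mouse come first and the tests after them. The classical heavy chain H2-K1 stood at 2137, 1667 and 2362 CPM in the WT enterocytes and at 2160, 1221 and 1848 CPM in the KO enterocytes. The genotypes overlapped, at 2055 ± 355 (SD, n = 3) against 1743 ± 478 CPM. H2-D1, the other classical heavy chain, stood at 1152, 991 and 1350 CPM in WT and 1075, 721 and 1074 CPM in KO mice, and overlapped too. B2m, without which class I molecules do not reach the surface, stood at 1314, 1596 and 1413 CPM in WT and 1198, 861 and 1245 CPM in KO mice. H2-T23, which encodes Qa-1, a non-classical molecule that presents leader peptides to natural killer cell receptors, stood at 245, 271 and 298 CPM in WT and 216, 148 and 231 CPM in KO mice. For B2m and H2-T23 every KO mouse lay under every WT mouse, and KO2 was the lowest mouse for all 4 genes.

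Tap1, the transporter subunit, showed a wider gap, with 25.8, 38.6 and 42.2 CPM in WT against 15.0, 16.3 and 15.9 CPM in KO enterocytes (35.5 ± 8.7 against 15.7 ± 0.68, SD, n = 3). The KO mice were close to each other and all lay under the lowest WT mouse. Its partner Tap2 stood at 24.8, 31.6 and 31.1 CPM in WT and 23.8, 19.6 and 26.3 CPM in KO mice, so Tap2, unlike Tap1, overlapped between genotypes. Nlrc5, a rare transcript, was close to 0 in KO enterocytes: 7, 35 and 45 UMIs were counted in WT mice and 1, 2 and 1 UMI in KO mice, or 1.19, 4.19 and 4.82 CPM against 0.11, 0.18 and 0.11 CPM. Over the 3 mice this was 4 UMIs among 28817883 in KO against 87 among 23589084 in WT, a ratio of 0.0376 with an exact 95% interval of 0.01 to 0.0999 that covers counting error only. WT1, which had the fewest enterocyte UMIs of the WT mice, was also the lowest WT mouse for Tap1 and Nlrc5.

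**Figure D1:**
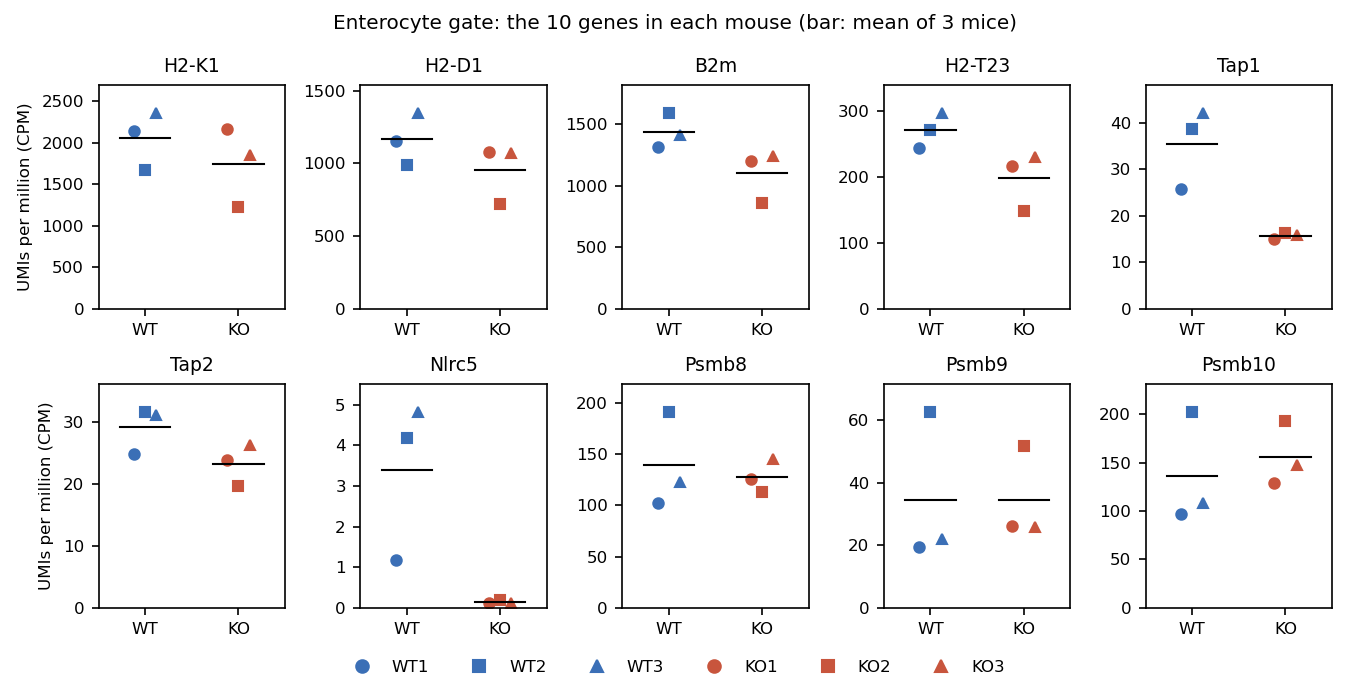
Each panel plots 1 gene in the enterocyte gate, in CPM (axis from 0), for the 3 WT (blue) and 3 KO (red) mice, with symbols for the hashtag number and a bar at the mean. Every KO mouse lay under every WT mouse for B2m, H2-T23, Tap1 and Nlrc5, and for 4.04% of all genes tested. Nlrc5 passed the filter for low counts only through the WT mice. Psmb9 and Psmb10 were highest in WT2 and KO2, the mice of hashtag 2.

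The immunoproteasome subunits overlapped between genotypes over the whole enterocyte gate. Psmb8 stood at 103, 191 and 123 CPM in WT and 126, 113 and 145 CPM in KO enterocytes. Psmb9 stood at 19.3, 62.7 and 21.9 CPM in WT and 26.3, 51.8 and 25.7 CPM in KO enterocytes, so that WT2 and KO2 stood above the other 4 mice. Psmb10 was likewise highest in these, with 96.8, 202 and 108 CPM in WT and 129, 193 and 147 CPM in KO mice. The ratio of each subunit to its constitutive counterpart, which does not depend on scaling, overlapped between genotypes over the whole gate. The log2 ratio of Psmb9 to Psmb6 was −1.91 ± 0.71 in WT and −1.97 ± 0.25 in KO enterocytes (SD, n = 3), that of Psmb8 to Psmb5 was 1.38 ± 0.31 and 0.83 ± 0.82, and that of Psmb10 to Psmb7 was 1.89 ± 0.14 and 1.68 ± 0.36. In exact 2-sided permutation tests of 3 against 3 mice, over 6 comparisons in all cells and enterocytes, p ran from 0.4 to 0.9 and the adjusted p from 0.84 to 0.9, with 0.1 the smallest p such a test can give.

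Across all genes, edgeR's quasi-likelihood test on the sums per mouse found 5 of 10566 genes (0.0473%) to differ between KO and WT enterocytes, and none of the 10 members. At an unadjusted p under 0.05 there were 753 genes, and 94 were called by DESeq2, Tap1 and Nlrc5 among them. Deviations from the genotype means correlated between mice of equal hashtag number (Pearson r = 0.598, 0.809 and 0.485 in enterocytes), so the number was also fitted as a block. So did some unequal pairs, WT3 with KO1 at 0.602 and WT1 with KO3 at 0.36, while unequal pairs with WT2 or KO2 were negative. No label states a pairing, and the calls with the block depend on this choice. With the block 800 genes were lower (7.57%) and 1074 higher (10.2%) in KO, and 7 of the 10 members passed, all lower. The log2 fold changes were −4.62 for Nlrc5 (SE 0.50), −1.32 for Tap1 (SE 0.16), −0.64 for H2-T23 (SE 0.13), −0.57 for B2m (SE 0.14), −0.50 for Tap2 (SE 0.14), −0.46 for H2-D1 (SE 0.12) and −0.43 for H2-K1 (SE 0.12). Their edgeR adjusted p were, in that order, 0.000961, 0.00143, 0.0117, 0.0225, 0.0366, 0.0256 and 0.0434 with the block, against 0.109, 0.180, 0.651, 0.686, 0.653, 0.743 and 0.743 without it. Nlrc5, with 1, 2 and 1 UMI in the KO mice, passed the filter for low counts only through the WT mice, where it was high. Its calls in this gate and its lack of overlap are therefore a description and no separate support. Psmb8 (−0.24, SE 0.17), Psmb9 (−0.05, SE 0.14) and Psmb10 (0.10, SE 0.12) did not pass, with edgeR adjusted p of 0.343, 0.821 and 0.604 with the block. The median over the 10 members was −0.48, and over all genes tested 0.055. The count of members lower in every KO mouse than in every WT mouse was 4 of 10, Nlrc5 being 1 of the 4, against 4.04% of the genes tested.

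The calls of the heavy chains and of B2m and Tap2 rested on which mice entered. The scaling (TMM) factors also enter them, at 1.056 to 1.063 in KO and 0.881 to 1.037 in WT enterocytes. The block fit was not run with total UMIs alone. Once WT3 and KO3 were left out of the block fit, 2 members passed, Nlrc5 (−4.14, edgeR adjusted p = 0.0413) and Tap1 (−1.14, adjusted p = 0.045), and 0.749% of all genes were lower in KO. When WT2 and KO2 were left out, 6 passed with the block, Tap2 being the one lost, and 2 passed without it, Nlrc5 (−4.87, edgeR adjusted p = 0.0293) and Tap1 (−1.37, adjusted p = 0.0242). In those fits 8.82% and 4.63% of all genes were lower in KO. The Nlrc5 calls in these fits are again a description, since its counts were low in every KO mouse. Over all alternatives the adjusted p ran from 0.000367 to 0.574 for Nlrc5, from 0.000283 to 0.613 for Tap1, from 0.00878 to 0.999 for H2-T23, from 0.0225 to 0.999 for B2m, from 0.0301 to 0.999 for Tap2, from 0.016 to 1.0 for H2-D1 and from 0.0362 to 1.0 for H2-K1. Other markers differed between mice in this gate. The summed villus-top markers stood at 51096, 24413 and 51478 CPM in WT and 38063, 21343 and 35706 CPM in KO enterocytes, lowest in WT2 and KO2 and with overlap between genotypes. Paneth markers stood at 342, 257 and 322 CPM in WT and 775, 558 and 682 CPM in KO, without overlap. Their part in the result was not tested.

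When the enterocytes were divided into 3 zones by a villus score, every KO mouse lay under every WT mouse for 4 members in the bottom zone (4.97% of genes tested), 6 in the middle zone (6.63%) and 5 in the top zone (7.05%). B2m, Tap1 and Nlrc5 did so in each zone, Tap2 in the bottom and top and H2-T23 in the middle. For Nlrc5, with 0 to 2 UMIs per KO mouse in a zone, this is a description. Psmb9 did so in the middle zone, at 11.7, 11.4 and 14.6 CPM in WT against 9.0, 9.4 and 6.8 CPM in KO, and in the top zone, and Psmb8 in the middle zone, at 98.4, 94.4 and 107.9 against 73.5, 64.0 and 78.8 CPM. The log2 ratio of Psmb9 to Psmb6 was −3.47 ± 0.23 in WT and −4.34 ± 0.40 in KO in the top zone (SD, n = 3), that of Psmb8 to Psmb5 was 1.45 ± 0.43 and 0.80 ± 0.11 there, and that of Psmb10 to Psmb7 was 1.89 ± 0.07 and 1.54 ± 0.08 in the middle zone. In these 3 cases the mice did not overlap, and how often ratios of other genes do so was not counted. Psmb9 in the top zone had only 18, 6 and 27 UMIs in WT and 14, 4 and 8 UMIs in KO mice. The ratios of the other pairs and zones overlapped, among them all 3 in the bottom zone. That of Psmb10 to Psmb7 in the top zone was 1.20 ± 0.21 in WT and 1.25 ± 0.44 in KO. The genotypes were not tested within a zone.

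**Figure D2:**
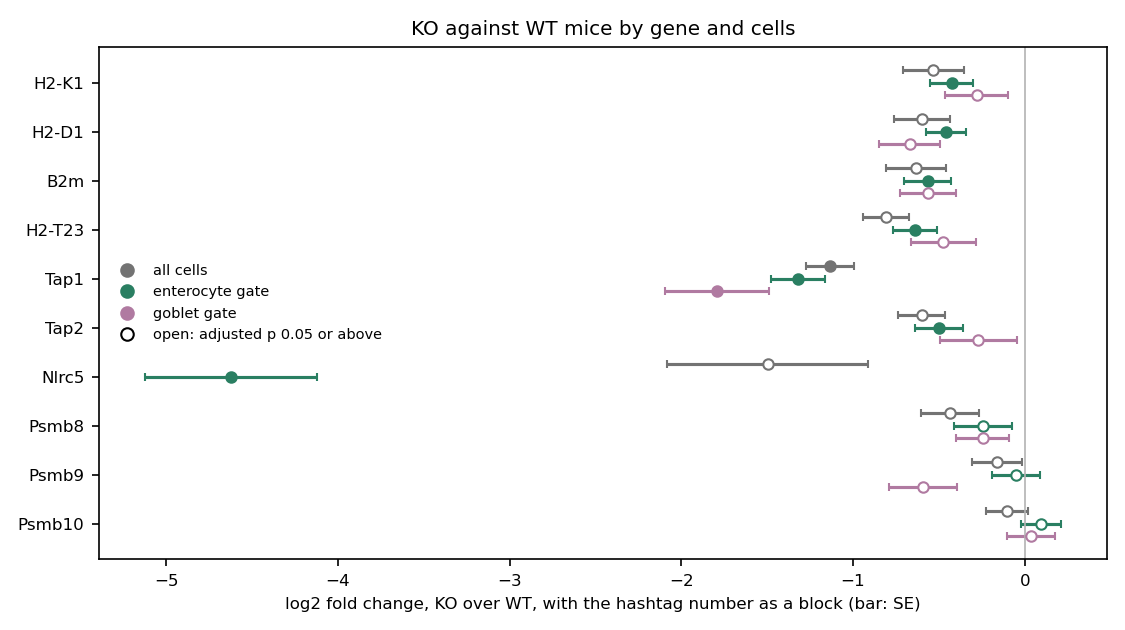
Log2 fold changes of KO over WT (x axis, bars are SE) are plotted for each gene in all cells (grey), the enterocyte gate (green) and the goblet gate (violet), fitted with the hashtag number as a block. Filled points have an edgeR adjusted p under 0.05: the 7 genes from H2-K1 to Nlrc5 in enterocytes, and Tap1 in all 3 sets of cells. In enterocytes Nlrc5 passed the filter for low counts only through the WT mice. Of all genes tested, 7.57% were lower in enterocytes, 0.973% in all cells and 0.814% in goblet cells.

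Other genes of the pathway, from lists of related genes, moved in both directions in KO enterocytes with the block, where 7.57% of all genes were lower and 10.2% higher. Of 23 tested regulators of class I genes, 7 were lower and 1 higher. The lower ones included the interferon signalling factors Irf9 (−1.45), Stat2 (−1.10) and Irf7 (−1.09) and the feedback inhibitor Socs1 (−0.90), and the higher one was the NF-Y subunit Nfyb (0.76). Irf1, the IRF that drives many class I genes, was not among those called, at 143, 109 and 149 CPM in WT and 158, 102 and 141 CPM in KO. Of 7 tested other heavy chains 1 was lower, H2-T22 (−0.73), and their median was −0.03. Of 10 peptide loading and trimming genes none was lower and 2 were higher, the translocon subunit Sec61b (0.73) and the chaperone Canx (0.44). Of 8 proteasome activator and assembly genes 2 were higher, the chaperones Psmg2 (1.42) and Psmg1 (1.37), and of 14 constitutive proteasome subunits 4 were higher, Psmb2 (0.51), Psma5 (0.50), Psma4 (0.44) and Psma2 (0.38). MHC class II genes were lower in 5 of 6, with Cd74, the invariant chain, at −4.29 and H2-Aa at −3.68. All 8 interferon reference genes were lower, with a median of −2.85, so most class I members changed less than these. None of these lists had a member called without the block but the interferon reference genes, where Rsad2 was.

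In goblet cells 8 of the 9 members tested had estimates under 0 with the block, Psmb10 (0.04) being the exception, and Tap1 alone passed. Tap1 stood at 12.6, 15.4 and 17.6 CPM in WT (40 to 52 UMIs per mouse) and 2.46, 5.86 and 5.11 CPM in KO mice (6 to 27 UMIs). H2-D1 stood at 511, 436 and 576 CPM in WT and 357, 315 and 338 CPM in KO mice, and B2m at 411, 374 and 428 against 307, 271 and 294 CPM. For these 3 of 10 genes every KO mouse lay under every WT mouse, against 3.59% of genes tested. H2-K1 (840, 614 and 848 against 717, 583 and 700 CPM) and H2-T23 (383, 247 and 435 against 294, 227 and 276 CPM) overlapped. Nlrc5 gave 0, 7 and 4 UMIs in WT and 0, 1 and 0 UMIs in KO mice and was below the count filter.

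Without the block, edgeR called 1 of 8970 genes in goblet cells (0.0111%), with 262 genes under an unadjusted p of 0.05 and 30 called by DESeq2, and none of the 9 members tested. With the block 73 genes were lower (0.814%) and 29 higher (0.323%), and Tap1 was the 1 member called, at −1.79 (SE 0.30, edgeR adjusted p = 0.00877, from 6.78e-08 to 1.0 over the alternatives, and 0.403 without the block). More members passed when WT2 and KO2 were left out: 5 without the block (H2-D1 −0.86, H2-T23 −0.73, B2m −0.70, H2-K1 −0.47 and Tap1 −2.16) and 7 with it, Psmb8 (−0.37) and Psmb9 (−0.66) being the others. In those fits 562 and 1160 genes were called in all, and 4.31% and 8.16% of genes were lower in KO. The goblet markers summed to 269811 and 334654 CPM in WT2 and KO2 and to 445163 to 503405 CPM in the other 4 mice.

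Over all cells of a mouse, Tap1 stood at 21.5, 24.7 and 35.0 CPM in WT and 12.8, 13.1 and 15.3 CPM in KO mice, and with B2m it was 1 of 2 members without overlap (1.66% of genes tested). Without the block edgeR found 0 of 12944 genes (0.0%), while 232 had an unadjusted p under 0.05 and 38 were called by DESeq2, no member among them. With the block 126 genes were lower (0.973%) and 26 higher (0.201%), and Tap1 was called at −1.14 (SE 0.14, edgeR adjusted p = 0.0234, from 0.00386 to 1.0 over the alternatives). When WT1 and KO1 were left out of the block fit, 8 members passed, all but Psmb9 and Psmb10, and 5.03% of all genes were lower in KO. The summed level of the 10 genes was lower in KO by a ratio of 0.789 in all cells (exact permutation p = 0.5), 0.821 in enterocytes and 0.789 in goblet cells (exact permutation p = 0.1 for both, the smallest that 3 against 3 mice allow, the KO mice all lying under the WT mice).

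Whether the KO effect differed between enterocytes and goblet cells was tested as an interaction within mice. None of 10977 genes passed (0.0%) and no member did, with 556 genes at an unadjusted p under 0.05 and a smallest edgeR adjusted p among the members of 0.893. The same test between the villus-top and villus-bottom zones of the enterocytes found none of 9233 genes (0.0%, 426 having an unadjusted p under 0.05), and the smallest adjusted p among the members was 0.9. Without the low-count filter 15 and 18 genes passed.

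The low level of Nlrc5 in KO mice did not extend to every cell. In the enterocytes of KO mice it was 0.241 CPM in the villus-bottom zone (4 UMIs), and 0 of 6482364 and 0 of 5765659 UMIs in the middle and top zones. The exact 95% upper bounds of the KO to WT ratio were 0.215 and 0.22 there, for counting error only. The WT mice had 4.43, 2.93 and 3.17 CPM there (48, 18 and 21 UMIs). In the 196 cells outside every gate, KO mice held 18, 45 and 5 Nlrc5 UMIs (18.9, 9.8 and 4.5 CPM) and WT mice 7, 7 and 2 (10.6, 3.5 and 3.4 CPM). Over the mice that was 10.2 CPM in KO and 4.92 CPM in WT, a ratio of 2.07 with an exact 95% interval of 1.19 to 3.82 for counting error only. The genotypes overlapped, and within each pair of equal hashtag number the KO mouse was the higher. Tap1 in these cells stood at 49.8, 24.6 and 31.8 CPM in WT and 30.4, 26.9 and 34.8 CPM in KO mice, again with overlap. The summed level of the 10 genes stood there at 1836, 1740 and 1857 CPM in WT and 1267, 1360 and 1561 CPM in KO mice. For this sum, Tap2 and Psmb8 every KO mouse lay under every WT mouse, and the other members overlapped. The share of all genes doing so was not counted in these cells, and the genotypes were not tested. The cells outside every gate were led by Anxa1, Ly6d, F3, Crip2 and Ly6a and received no name. They were deep (median 50840 UMIs), carried epithelial markers at 10535 to 22625 CPM and immune markers at 1.7 to 160 CPM, and numbered 11, 44 and 11 in WT and 24, 79 and 27 in KO mice.

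**Figure D3:**
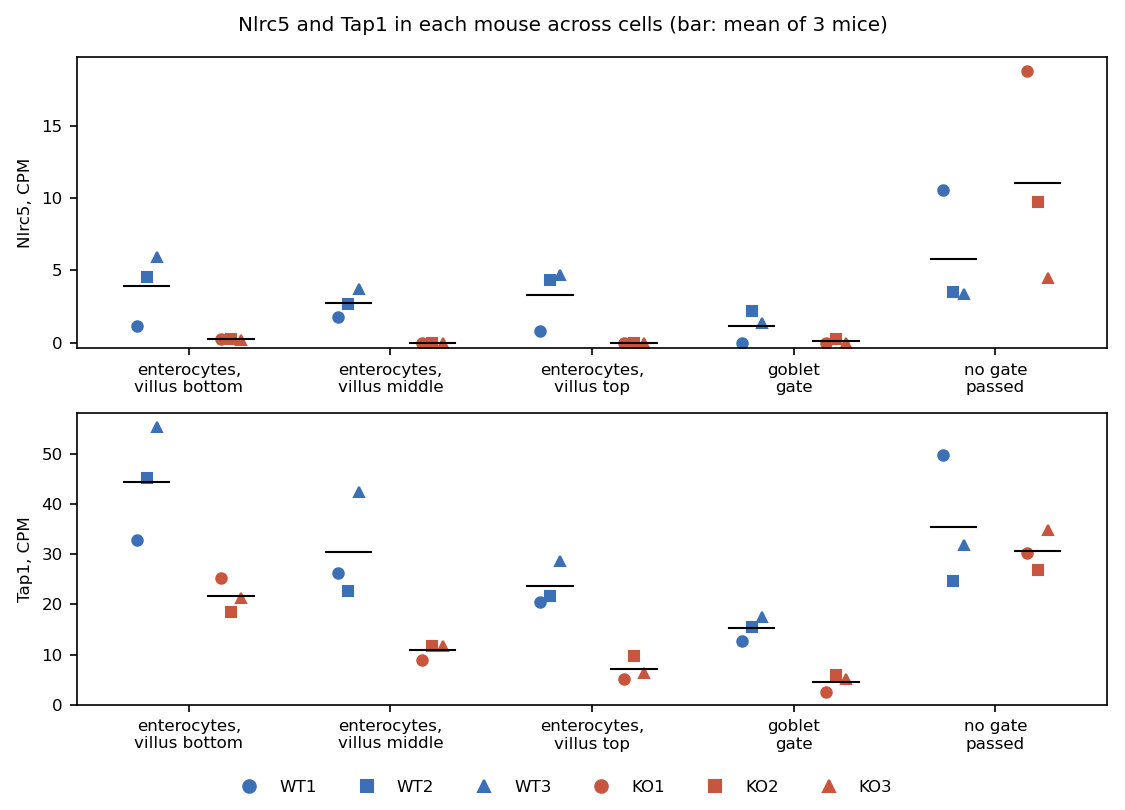
CPM of Nlrc5 (upper panel) and Tap1 (lower panel) are plotted for each WT (blue) and KO (red) mouse in the 3 zones of the enterocyte gate, the goblet gate and the cells outside every gate, with bars at the mean of 3 mice. KO mice lay near 0 for Nlrc5 in all enterocyte zones and at 4.5 to 18.9 CPM outside the gates, where WT mice lay at 3.4 to 10.6 CPM.

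Of the 10 members 5 were lower and 1 was higher in goblet cells than in enterocytes. Most genes differed there, so the counts alone do not set the members apart. Goblet cells were compared with enterocytes of the same 6 mice, a comparison in which 4006 of 10977 genes were lower (36.5%) and 3704 higher (33.7%). The lower members were B2m (−1.73, SE 0.16), Nlrc5 (−1.48, SE 0.50), Tap1 (−1.34, SE 0.19), H2-K1 (−1.25, SE 0.14) and H2-D1 (−1.20, SE 0.14), with edgeR adjusted p of 4e-06, 0.022, 8.7e-05, 1.7e-05 and 1.8e-05. H2-T23 was higher (0.54, SE 0.18, edgeR adjusted p = 0.0214), a call that leaving out WT1, WT3, KO1 or KO3 ended (adjusted p 0.0587 to 0.0838). The Nlrc5 call ended without WT1 or WT3 (edgeR adjusted p = 0.0551 and 0.112). Nlrc5 gave 0, 7 and 4 UMIs in WT and 0, 1 and 0 UMIs in KO goblet cells, and passed the filter only through the WT mice. Its call here is a description and no separate support. Tap2 (−0.42, SE 0.20), Psmb8 (−0.10), Psmb9 (−0.24) and Psmb10 (0.21) did not pass. H2-T23 stood at 310 ± 81.5 CPM in goblet cells and 235 ± 51.6 CPM in enterocytes (SD over 6 mice), and B2m at 348 ± 65.7 against 1271 ± 246 CPM. Among the other heavy chains, H2-T22 (1.43) and H2-M3 (3.87) were higher in goblet cells as well, while H2-Q1 (−4.40), H2-T3 (−4.33), H2-Q2 (−3.73), Fcgrt (−3.57) and H2-Q4 (−1.50) were lower. The loading chaperones Pdia3 (1.98) and Calr (1.23) were higher, Tapbp (−0.40), which bridges heavy chain and transporter, was lower, and 18 of 24 regulators were lower, with Ifnlr1 at −2.26. Psmb5 was higher at 0.94 (SE 0.15), and 7 of 14 constitutive subunits were higher and none lower. The 2 gates differed in depth (median 26671 UMIs per goblet and 9311 per enterocyte cell).

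Along the villus, the classical heavy chain H2-K1 was higher at the top in every mouse, while the immunoproteasome subunits and Tap1 were lower. H2-D1 was higher in the fit but not in every mouse. Enterocytes were divided into 3 zones of 1348 cells each by a score of villus-top over villus-bottom markers, none of which is a member, and 331 and 560 cells lay within 0.1 of the lower and upper cut. Psmb9 stood at 44.5, 84.3 and 42.1 CPM in the bottom zone of WT mice and 51.0, 70.2 and 42.0 CPM in that of KO mice. In the top zone it stood at 7.2, 6.5 and 8.4 CPM in WT and 5.4, 2.8 and 4.6 CPM in KO, lower in 6 of 6 mice. Psmb8 fell from a range of 135 to 234 CPM to one of 49.9 to 74.5 CPM, and Psmb10 from 161 to 250 CPM to 59.2 to 64.8 CPM. Tap1 went from 32.8, 45.2 and 55.6 CPM to 20.5, 21.7 and 28.7 CPM in WT and from 25.2, 18.5 and 21.3 CPM to 5.1, 9.6 and 6.3 CPM in KO mice. H2-K1 went the other way, from 1916, 1441 and 2234 CPM to 2228, 2267 and 2393 CPM in WT mice and from 1966, 837 and 1706 CPM to 2249, 2263 and 2099 CPM in KO mice, higher at the top in 6 of 6 mice. H2-D1 went from 1158, 897 and 1362 CPM to 1184, 1170 and 1347 CPM in WT mice. In KO mice it went from 1133, 550 and 1038 CPM to 1025, 1171 and 1153 CPM. It rose most in WT2 and KO2, and it fell in WT3 and KO1.

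In edgeR fits within mice, 3351 of 9233 genes were lower (36.3%) and 3018 higher (32.7%) in the top zone. Scaled by total UMIs alone, 4373 were lower and 1965 higher and the median of all genes moved from −0.08 to −0.43. Of the members, 6 were lower, Psmb9 (−2.76, SE 0.25), Psmb10 (−1.37, SE 0.14), Psmb8 (−1.35, SE 0.14), Tap1 (−0.86, SE 0.21), Tap2 (−0.46, SE 0.15) and B2m (−0.37, SE 0.15), with edgeR adjusted p of 7e-06, 1.4e-05, 1.5e-05, 0.00358, 0.0168 and 0.0404. H2-K1 (0.82, SE 0.17) and H2-D1 (0.59, SE 0.16) were higher, with edgeR adjusted p of 0.00137 and 0.00662. H2-D1 kept its direction but not its call under total UMIs (0.24, adjusted p = 0.224). The B2m call ended without WT1, WT2, WT3, KO1 or KO3 (adjusted p 0.0544 to 0.156), and the Tap2 call without WT1, KO1 or KO3 (adjusted p 0.0502 to 0.0763). Of 6 other heavy chains tested 3 were lower and none higher, H2-T3 (−2.03), the Fc receptor Fcgrt (−1.46) and H2-T22 (−0.76). H2-T23 (−0.10) and Nlrc5 (−0.07) did not pass, though H2-T23 did without KO2 (−0.33, edgeR adjusted p = 0.0132). Median depth was 12946 UMIs per cell in the bottom, 8481 in the middle and 8528 in the top zone, and the part of depth was not tested.

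**Figure D4:**
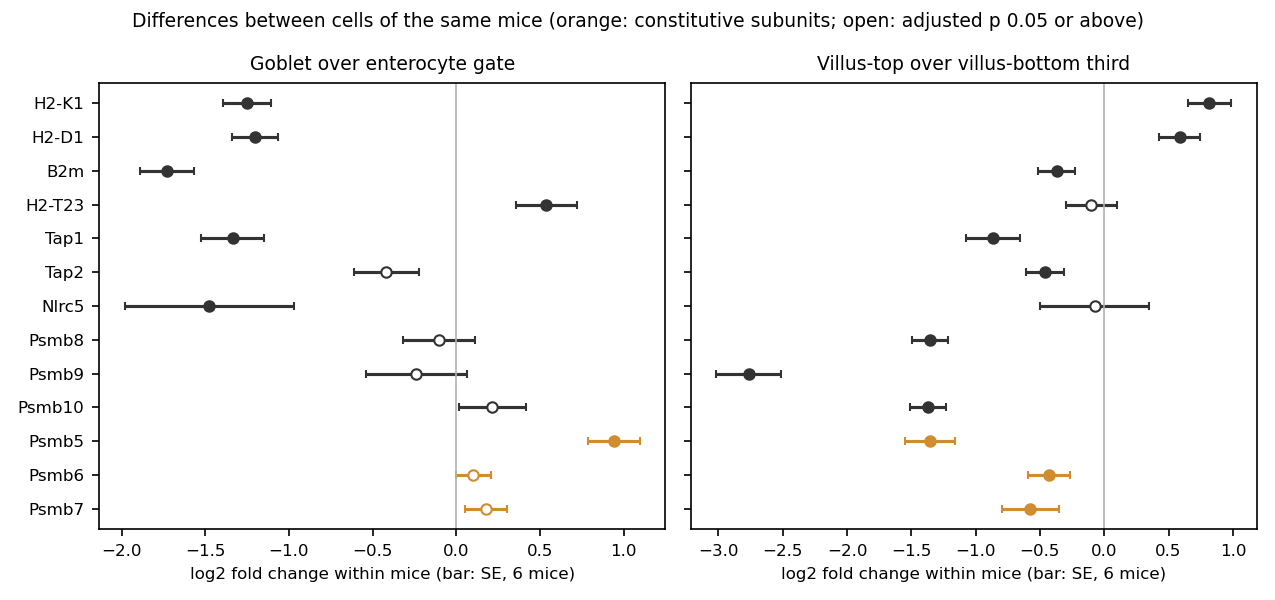
Log2 fold changes within the 6 mice (x axis, bars are SE) are plotted for goblet over enterocyte cells (left) and the villus-top over the villus-bottom zone (right), with members in black and constitutive subunits in orange. Open points did not pass an edgeR adjusted p of 0.05, and H2-K1 and H2-D1 lie left of 0 in the left panel and right of it in the right panel.

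The whole core proteasome was lower at the top: all 14 constitutive subunits passed, with a median of −1.70 against −0.08 over all genes, from Psma4 (−2.67) to Psmb6 (−0.43). The activator subunits Psme1 (−1.38) and Psme2 (−1.22), which open the proteasome gate, were lower as well. Psmb9 fell further than Psmb6, the counterpart it replaces, which was the least changed of the 14. Its fall was close to that of Psma4, while Psmb8 and Psmb10 fell by less than the median of the 14. The ratios below therefore compare each subunit with its counterpart and not with the whole core. The log2 ratio of Psmb9 to Psmb6 dropped from bottom to top in 6 of 6 mice, with differences of −2.071, −2.863 and −1.678 in WT and −2.731, −3.096 and −2.626 in KO mice, a mean of −2.51 ± 0.53 (SD, n = 6 mice, exact sign-flip permutation p = 0.0312, the smallest that 6 mice allow, adjusted over 3 pairs 0.0468). Psmb10 to Psmb7 fell in 6 of 6 mice by a mean of −0.79 ± 0.53 (exact sign-flip permutation p = 0.0312, adjusted 0.0468). Psmb8 to Psmb5 changed by 0.04 ± 0.68 with 4 of 6 mice lower at the top (exact sign-flip permutation p = 0.938, adjusted 0.938). Of 23 regulators, 12 were higher at the top, among them Rela (1.21), Relb (1.20), Irf7 (1.15), Irf1 (1.11) and Ifnlr1 (0.92), and 3 lower, among them Irf8 (−0.49) and Ifnar2 (−0.48).

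**Figure D5:**
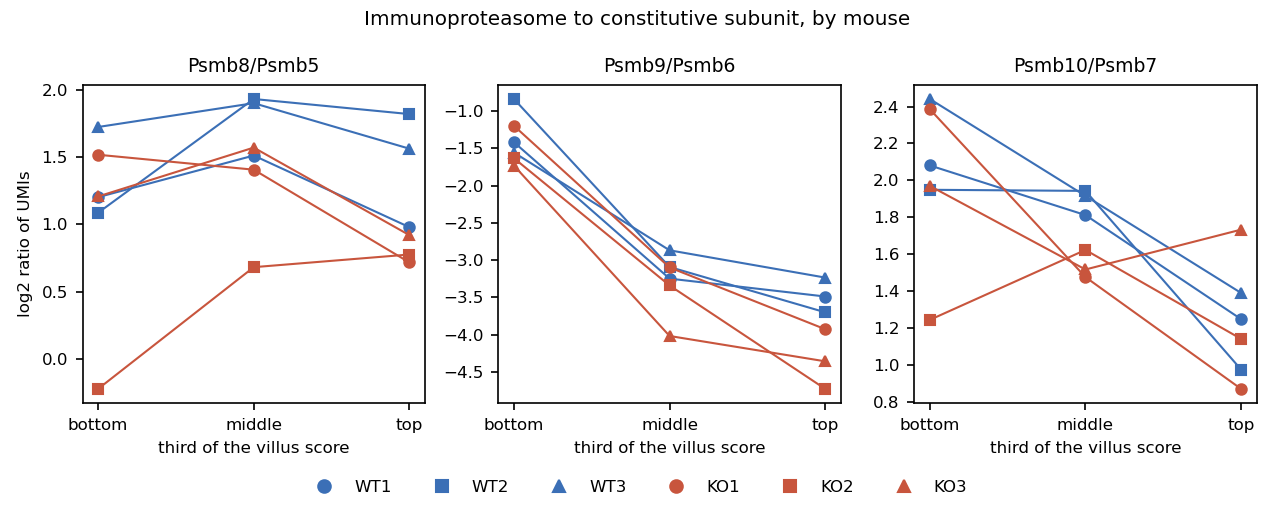
The log2 ratio of UMIs of each immunoproteasome subunit to the constitutive subunit it replaces (y axis, a separate scale per panel) is plotted for the bottom, middle and top zones of the villus score, 1 line per WT (blue) or KO (red) mouse. Psmb9/Psmb6 fell from bottom to top in 6 of 6 mice, while Psmb8/Psmb5 had no common direction.

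Genes outside the lists were ranked by how closely their log2 CPM followed the mean standardized level of 9 members (all but Nlrc5) over 12 points, the enterocyte and goblet gates of 6 mice. Among 6797 genes with at least 10 CPM on average, the closest were Cblc (Pearson r = 0.938), Nmi (0.923), Mocs2 (0.898), Tmcc3 (0.885) and Trim34a (0.864). The points share mice and libraries, and the difference between the 2 gates enters every r, so these values are a description.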

How the data were processed

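Raw UMI counts, whole numbers deposited by the authors without normalization, were used, made with 10x Genomics chemistry that reads 3′ ends, 1 mRNA and 1 hashtag library per genotype. Cell Ranger 7.0.1, mm10 and Seurat 4.1.0 are named in the submitters' processing notes, and further settings were not given in the sources used here. The labels name 2 experiments, and the first is analysed here. Barcodes were kept with at least 1000 UMIs, 500 genes and at most 25% mitochondrial UMIs. HTODemux (Seurat 5.3.0, quantile 0.99) assigned mice, and hashtag doublets (549 WT and 305 KO barcodes) and 2241 and 855 barcodes without hashtag entered no comparison between mice. Doublets within a mouse stay in. The alternative without the 5% of cells with most UMIs bears on them.

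Gates were cuts on the share of a cell's UMIs from markers: 2% for enterocyte, goblet and Paneth, 0.5% for enteroendocrine, 0.2% for tuft, 0.15% for progenitor and 0.1% for immune. The cuts were set after the distributions were seen, and of 5641 cells 151 lay between 0.5 times the enterocyte cut and the cut and 383 between the cut and 2 times it. Cells past conflicting gates (244) were left out of gates. Counts were summed per mouse, CPM are counts per 1000000 of a mouse's or gate's total without further scaling, and log2 fold changes come from edgeR 4.0.16 (quasi-likelihood, TMM, filterByExpr, R 4.3.3) with Benjamini-Hochberg adjustment over all genes tested and a threshold of 0.05. They differ from ratios of the printed CPM by the TMM factors. DESeq2 1.42.0 was an alternative.

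Equal hashtag numbers were treated as pairs because residuals of all 3 correlated above 0.1 (r = 0.416, 0.854 and 0.638 in all cells, 0.598, 0.809 and 0.485 in enterocytes). Other pairs did too (WT3 with KO1 0.638), and equal numbers share a hashtag antibody but no stated litter or day. All p-values compare mice within 2 pools. The edgeR fits of KO over WT without the block were also run on simulated data, and those with the block were not. Members and lists were chosen with earlier results of these data known. The text names all members, the 3 constitutive counterparts, up to 6 called genes per other list by size (a few further ones were named after their values were seen, such as Irf1 and Ifnlr1) and the 5 genes most like the members. One gene of the regulator list is not reported here by name.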

Additional observations from a re-analysis of the deposited data

How the results depend on the processing

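The number of genes and members called between KO and WT depended on the fit, while Tap1 kept its direction in all alternatives run. Nlrc5 did so in all cells and in enterocytes, and for enterocytes its low KO counts make this a description. In all cells, against 0 genes and 0 members, DESeq2 called 38 genes, the replicate block 152 (1 member), the fit without both mice of hashtag 2 called 9, and the block without hashtag 1, 2 or 3 called 1212 (8 members), 55 and 36. In enterocytes, against 5 genes and 0 members, DESeq2 called 94 (2 members), no low-count filter 40 (1 member), the block 1874 (7 members), the hashtag ratio rule 17 (1 member), a mitochondrial limit of 15% 1, leaving out the 5% of cells with most UMIs 12, a gate of 2 times the share 14, leaving out both mice of hashtag 2 768 (2 members), and the block without hashtag 1, 2 or 3 called 1667, 1740 and 130 (7, 6 and 2 members). Leaving out 1 mouse gave 0 genes in each case. In goblet cells, against 1 gene and 0 members, DESeq2 called 30, total UMIs 0, no filter 8, the block 102 (1 member), the ratio rule 0, leaving out the deepest cells 7, the doubled gate 2, leaving out hashtag 2 562 (5 members), and the block without hashtag 1, 2 or 3 called 44, 1160 (7 members) and 53. Leaving out 1 mouse gave 0 to 29, the 29 without WT2. Without a filter the interactions called 15 (cell type) and 18 genes (zone). The alternatives that left out both mice of a hashtag number were chosen after seeing the data.

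None of the log2 changes that turned sign was called, before or after turning. Psmb10 in all cells became 0.04 under total UMIs, Psmb8 and Psmb9 in enterocytes became 0.05 and 0.12 without hashtag 2, with the block and without it, and Psmb10 in goblet cells −0.02 with the block without hashtag 1. Leaving out 1 mouse gave −0.57 to 0.2 for Psmb9 and −0.21 to 0.02 for Psmb10 in all cells, −0.54 to 0.51 and −0.12 to 0.37 in enterocytes, −0.61 to 0.09 for Tap2 and −0.1 to 0.15 for Psmb10 in goblet cells, and −0.26 to 0.12 for Psmb8 and −0.54 to 0.03 for Psmb9 in goblet cells over enterocytes. The KO minus WT log2 ratios ran from −0.913 to 0.035 (Psmb8/Psmb5) and −0.416 to 0.033 (Psmb10/Psmb7) in all cells and from −0.308 to 0.338 (Psmb9/Psmb6) in enterocytes. The summed level ratio ran from 0.689 to 0.943, 0.763 to 0.916 and 0.733 to 0.84 in all cells, enterocytes and goblet cells. The cause was not tested. Total UMIs in place of TMM moved the median of all genes between KO and WT from 0.057 to 0.216 in enterocytes. Nlrc5 in goblet cells, with 0 to 7 UMIs per mouse, was too low to test between genotypes.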

Other observations

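Cells without a hashtag entered no comparison and give a separate reading of each library. In the enterocyte gate they numbered 1382 in WT (8755147 UMIs) and 801 in KO (10050105 UMIs). Nlrc5 gave 35 UMIs in WT (4.0 CPM, exact Poisson 95% interval 2.785 to 5.56) and 1 UMI in KO (0.1 CPM, 0.003 to 0.554). Tap1 stood at 38.8 CPM in WT (34.8 to 43.2) and 18.5 CPM in KO (15.9 to 21.4), and Tap2, its partner, at 27.2 CPM (23.8 to 30.9) and 21.1 CPM (18.4 to 24.1). B2m stood at 1201 CPM (1178 to 1224) and 884 CPM (865 to 902), and H2-K1 at 2065 and 1593 CPM. Psmb9 was at 35.3 CPM in both. The intervals cover counting error only, and with 1 library per genotype there is no test.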
